A study of Mus musculus with 24 samples.

Results

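The genes described here are 36 genes that mark microglia, the resident macrophages of the brain, measured by RNA-seq of whole prefrontal cortex from mice. They were taken by gene symbol from a count table of 45777 genes, in which each symbol matched 1 row. All 36 passed the filter on low counts, which left 18380 genes to test. They comprised 12 homeostatic genes of resting microglia, 8 genes of the phagocytic machinery and 16 other genes of microglia and related macrophages. The study gave EC-12, a heat-killed preparation of the gut bacterium Enterococcus faecalis, for 5 weeks and asked about its effect after maternal separation, in which pups are taken from their mother for periods of early life. There were 24 libraries from adult male wild-type mice in 4 groups of 6. The Control group was reared normally and received no treatment, and the MS group went through maternal separation without the supplement. Control_EC12 mice received EC-12 after normal rearing, and MS_EC12 mice went through maternal separation and received EC-12. Nothing in the labels ties a library to its own animal, and the p-values then measure only how far these libraries scatter, which may be technical in part.

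Microglia depend on signalling through Csf1r, the receptor of the cytokines CSF1 and IL-34, and on the transcription factors PU.1 (gene Spi1), IRF8 and SALL1. In the healthy cortex their branches survey the tissue through receptors such as the purinergic receptor P2RY12 and the fractalkine receptor CX3CR1. When they take up debris or synapses, recognition receptors such as TREM2, Fc receptors and MERTK come into play, with the adaptors TYROBP and FCER1G passing the signal on and lysosomal proteins such as CD68 and cathepsin S handling what was engulfed.

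What the members share in sequence was read from RefSeq promoter windows of the build GRCm38.p6, from 250 bases before to 50 bases after each start site, which were found for 29 of the 36. The binding core of PU.1, GAGGAAGT on either strand, was searched because PU.1 is the lineage factor among the members. It stood in the windows of 6 of the 29 members (20.7%) and in those of 3.69% of 27025 genes. The shorter forms of the same core, which contain one another and so overlap, stood in 13 members (44.8%) as GAGGAAG, against 15.4% of all genes, and in 17 members (58.6%) as GAGGAA, against 31.3%. A composite of an ETS and an IRF site, GGAA and GAAA with 2 bases between them, stood in 2 members (6.9%) and in 3.16% of genes. The windows of 5 of the 6 members with the longest form are shown 5′ to 3′ on the strand of the gene, to show how close to the start site it lies, with the match in capitals (ACTTCCTC is the match read on the opposite strand).
Ctss (chr3:95526728-95526791, + strand): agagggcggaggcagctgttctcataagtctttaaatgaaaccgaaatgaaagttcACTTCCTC
Inpp5d (chr1:87620236-87620311, + strand): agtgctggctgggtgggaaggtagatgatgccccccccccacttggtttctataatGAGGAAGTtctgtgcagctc
Slco2b1 (chr7:99711327-99711390, − strand): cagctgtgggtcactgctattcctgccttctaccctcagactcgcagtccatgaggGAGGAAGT
Cd53 (chr3:106790136-106790199, − strand): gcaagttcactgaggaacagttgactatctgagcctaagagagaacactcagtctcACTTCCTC
Apbb1ip (chr2:22774276-22774339, + strand): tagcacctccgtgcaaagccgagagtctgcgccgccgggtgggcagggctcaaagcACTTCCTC
The match began 20 bases before the start site in Inpp5d, 2 bases before it in Ctss, 5 bases after it in Apbb1ip and 6 bases after it in both Cd53 and Slco2b1. Cyth4 was the 6th such member, with the match 26 bases after its start. The start site used for Apbb1ip lies within the span of that gene (chr2:22755971-22875653), not at its 5′ end. A match is a run of letters and does not show that PU.1 binds there.

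Total counts ran from 26250197 to 39252382 reads per library. The libraries differed in how counts varied with base composition. For each library the log2 CPM (read counts scaled to library size) of all genes, relative to each gene's mean over the libraries, were regressed on the GC content of the gene's longest transcript. The slope was below 0 in 17 libraries and above 0 in 7, of which 4 were MS_EC12, 2 were Control_EC12 and 1 was MS. All 6 Control libraries lay below 0. The highest slopes, 0.627 and 0.505 log2 units per 10 points of GC, belonged to MS_EC12 replicates 6 and 3. The slope moved with the groups, so the results for the members in each comparison are also given in the 17 libraries below 0.

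Microglial RNA was present in every library. On the scale of the deposited TPM, which corrects for gene length as well as depth, mean levels over the 24 libraries ran from 99.2 for Ctss, the lysosomal protease cathepsin S, to 1.12 for Ptprc, the leukocyte phosphatase CD45. Tyrobp followed Ctss at 62.2 TPM, Csf1r stood at 56.8, Rgs10 at 54.3, P2ry12 at 35.4, Laptm5 at 33.5 and Cx3cr1 at 31.4. Tmem119 (24.4) and Trem2 (24.3) were neighbours in the order that differed by less than their spread between libraries. At the low end stood Apbb1ip (4.11), Cd33 (4.09) and Dock8 (1.37). The median member had 15.99 TPM, against 11.2 for the median gene tested.

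**Figure D1:**
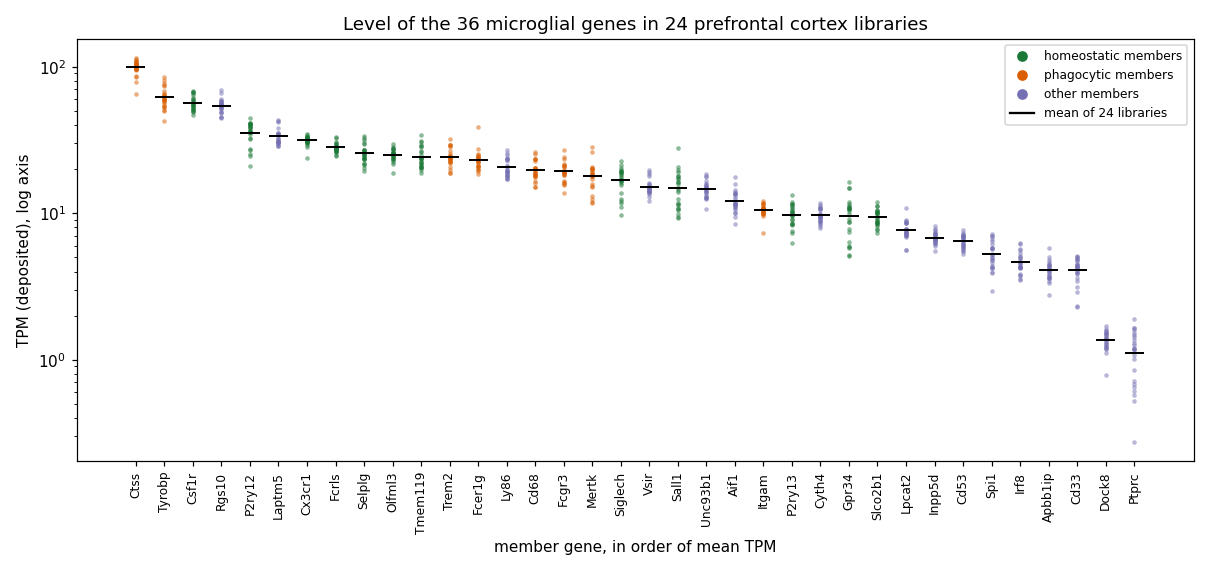
Deposited TPM of each of the 36 members (log axis) in the 24 libraries, 1 point per library, coloured by role, with black bars at the mean. Ctss is highest with a mean of 99.2 TPM and Ptprc lowest with 1.12, and Ptprc spreads most.

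The summed TPM of the 12 homeostatic members ranged from 271 to 305 in Control, 276 to 295 in MS, 263 to 305 in Control_EC12 and 280 to 293 in MS_EC12. For the 8 phagocytic members the sums were 247 to 301, 260 to 282, 266 to 318 and 266 to 298 in the same order. The ranges of the 4 groups overlapped for both. Markers of other cells that could share these genes were low. The 10 genes of border-associated macrophages, such as Mrc1 and Pf4, summed to 14.6 to 19.3 TPM in Control, 12.6 to 16.3 in MS, 13.4 to 20.4 in Control_EC12 and 13.4 to 18.6 in MS_EC12. The 10 genes of blood myeloid cells summed to 7.67 to 26.2, 6.21 to 12.4, 6.07 to 27.0 and 8.81 to 20.4 TPM, and 4 of them had a mean count under 10. Of the 10 lymphocyte genes 8 had a mean count under 10, and their sums ran from 9.20 to 13.1, 10.4 to 15.5, 8.33 to 15.1 and 5.41 to 20.8 TPM. No gene of these 3 lists was at 0 in all 24 libraries. Their part in any difference between groups was not tested.

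The most even member across the 24 libraries was Cx3cr1, with an SD of 0.09 log2 CPM, and the least even was Ptprc at 0.60, followed by Sall1 at 0.38. The median SD was 0.22 over the members and 0.26 over all genes tested. The counts behind these values were 1200 or more per library for Cx3cr1 and as few as 29 for Ptprc.

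In the bulk of a tissue, fewer cells of a type and less RNA per cell cannot be told apart, which holds for all values that follow. Levels within a gene are given in CPM, scaled by TMM factors.

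Among the homeostatic receptors, Cx3cr1 ranged from 44.5 to 54.6 CPM in Control (median 49.9), 44.5 to 49.95 in MS (median 49.1), 44.7 to 52.8 in Control_EC12 (median 49.9) and 49.8 to 55.8 in MS_EC12 (median 51.99). P2ry12, which senses ADP from damaged cells, ranged from 35.2 to 43.3 CPM in Control (median 38.3), 29.2 to 45.4 in MS (median 37.1), 26.5 to 43.2 in Control_EC12 (median 39.4) and 24.3 to 43.9 in MS_EC12 (median 32.9). For both genes all 4 groups overlapped, and the low P2ry12 values of MS_EC12 were those of replicates 6, 3 and 4, which had GC slopes above 0. P2ry13, its neighbour on chromosome 3, ranged from 8.91 to 11.9 CPM in Control (median 9.91), 10.3 to 14.1 in MS (median 11.6), 6.65 to 10.9 in Control_EC12 (median 10.5) and 8.67 to 12.9 in MS_EC12 (median 9.63), and here all 6 MS libraries lay above the Control median. Both genes lie within the span of Med12l (P2ry12 at chr3:59216271-59262985, GRCm38), and reads of overlapping genes may not be separable because the strand setting of the counting is not given in the sources used here.

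Csf1r, the growth factor receptor, ranged from 75.8 to 102 CPM in Control (median 87.9), 78.1 to 110 in MS (median 86.6), 84.4 to 110 in Control_EC12 (median 91.5) and 81.6 to 126 in MS_EC12 (median 109). Siglech, a sialic acid receptor, ranged from 15.01 to 17.9 CPM in Control (median 16.8), 12.3 to 19.6 in MS (median 17.99), 10.5 to 20.5 in Control_EC12 (median 19.00) and 9.78 to 17.4 in MS_EC12 (median 13.2). No MS_EC12 library exceeded the median of MS for Siglech, and MS_EC12 replicates 1 and 2 stood highest in their group. Tmem119, a membrane protein used as a microglial marker, ranged from 20.1 to 25.4 CPM in Control (median 21.9), 18.2 to 27.3 in MS (median 20.2), 18.3 to 26.3 in Control_EC12 (median 19.3) and 20.6 to 34.5 in MS_EC12 (median 29.4). All 6 MS_EC12 libraries stood above the medians of MS and of Control_EC12 for Tmem119, while the range of MS_EC12 overlapped with those of the 3 other groups.

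Slco2b1, an organic anion transporter, ranged from 15.9 to 23.9 CPM in Control (median 18.2), 13.6 to 18.4 in MS (median 16.4), 17.2 to 21.2 in Control_EC12 (median 18.8) and 16.7 to 22.9 in MS_EC12 (median 21.3). Only 1 MS library exceeded the Control median. Sall1, the factor that maintains microglial identity, ranged from 26.5 to 39.1 CPM in Control (median 32.04), 21.7 to 36.9 in MS (median 29.2), 30.4 to 60.1 in Control_EC12 (median 40.9) and 22.4 to 49.1 in MS_EC12 (median 33.5), with its highest value in Control_EC12 replicate 2. The groups overlapped for both genes.

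Of the phagocytic receptors and their adaptors, Tyrobp (chr7:30413782-30417582, GRCm38), the adaptor of TREM2, ranged from 10.3 to 15.6 CPM in Control (median 13.2), 11.7 to 15.8 in MS (median 12.9), 13.9 to 22.3 in Control_EC12 (median 14.7) and 14.7 to 23.2 in MS_EC12 (median 18.6). Trem2, a receptor for lipids and apolipoproteins, ranged from 8.61 to 11.1 CPM in Control (median 10.2), 8.78 to 11.8 in MS (median 10.7), 10.2 to 16.1 in Control_EC12 (median 10.8) and 11.3 to 14.98 in MS_EC12 (median 13.8). For Tyrobp and Trem2 all 6 MS_EC12 libraries stood above the median of MS, and Control_EC12 replicates 3 and 4 were the 2 highest of their group. Fcer1g, the shared chain of Fc receptors, ranged from 5.64 to 7.19 CPM in Control (median 6.45), 5.13 to 7.57 in MS (median 6.13), 5.27 to 12.9 in Control_EC12 (median 6.42) and 6.16 to 6.79 in MS_EC12 (median 6.56), where Control_EC12 replicate 4 stood alone at the top. Fcgr3, an Fc receptor with a close paralog in Fcgr2b with which reads may be shared, ranged from 8.57 to 15.8 CPM in Control (median 10.6), 10.8 to 12.4 in MS (median 11.5), 9.48 to 14.2 in Control_EC12 (median 10.7) and 10.2 to 14.8 in MS_EC12 (median 12.2).

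Mertk, a receptor for phosphatidylserine on dying cells that astrocytes also express, ranged from 33.7 to 40.2 CPM in Control (median 36.3), 29.6 to 39.7 in MS (median 35.3), 23.6 to 39.7 in Control_EC12 (median 33.8) and 27.7 to 54.5 in MS_EC12 (median 32.1). Its 2 highest values both belonged to MS_EC12 and the other 4 libraries of that group lay below the Control range. Cd68, a lysosomal glycoprotein, ranged from 7.90 to 9.80 CPM in Control (median 8.70), 7.17 to 10.4 in MS (median 9.54), 7.53 to 14.1 in Control_EC12 (median 10.3) and 9.39 to 14.9 in MS_EC12 (median 11.3). Ctss ranged from 51.2 to 65.4 CPM in Control (median 57.7), 49.1 to 60.8 in MS (median 56.3), 44.7 to 74.2 in Control_EC12 (median 57.3) and 42.04 to 63.9 in MS_EC12 (median 57.8), with overlapping groups and nearly equal medians. Itgam, the integrin chain of complement receptor 3, had the smallest spread of the phagocytic members, with an SD of 0.12 log2 CPM.

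The transcription factor gene Spi1 ranged from 1.82 to 3.56 CPM in Control (median 2.86), 2.64 to 3.75 in MS (median 3.09), 2.58 to 4.35 in Control_EC12 (median 3.85) and 2.57 to 4.72 in MS_EC12 (median 3.72). Irf8 ranged from 4.23 to 5.39 CPM in Control (median 5.11), 4.16 to 6.50 in MS (median 5.43), 5.10 to 6.82 in Control_EC12 (median 5.67) and 4.89 to 8.43 in MS_EC12 (median 6.82). The groups overlapped for both factors, and the highest Irf8 values were those of MS_EC12 replicates 6 and 3. Ly86, which pairs with a Toll-like receptor homologue, ranged from 6.73 to 8.57 CPM in Control (median 7.82), 7.21 to 8.23 in MS (median 7.71), 7.32 to 13.6 in Control_EC12 (median 9.64) and 8.12 to 12.2 in MS_EC12 (median 10.4), with 5 of 6 Control_EC12 libraries above the Control median and 6 of 6 MS_EC12 libraries above the MS median. Inpp5d, the phosphatase SHIP1, which damps signals from such receptors, ranged from 10.9 to 13.9 CPM in Control (median 12.97), 12.7 to 14.8 in MS (median 13.3), 12.6 to 15.03 in Control_EC12 (median 14.3) and 14.7 to 17.8 in MS_EC12 (median 16.1). All 6 MS_EC12 values of Inpp5d exceeded the median of MS, with a small overlap between the groups.

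Vsir, an immune checkpoint protein whose gene lies within the span of Cdh23, ranged from 24.8 to 32.98 CPM in Control (median 28.9), 27.4 to 39.04 in MS (median 29.9), 27.8 to 30.9 in Control_EC12 (median 28.9) and 30.6 to 43.3 in MS_EC12 (median 36.7). Dock8, a guanine nucleotide exchange factor, ranged from 3.84 to 4.48 CPM in Control (median 4.17), 4.01 to 5.63 in MS (median 4.93), 3.12 to 5.24 in Control_EC12 (median 4.37) and 4.27 to 5.28 in MS_EC12 (median 4.64). Ptprc ranged from 2.77 to 3.94 CPM in Control (median 3.02), 1.25 to 4.46 in MS (median 2.83), 1.56 to 3.84 in Control_EC12 (median 2.80) and 0.750 to 3.07 in MS_EC12 (median 1.63). In MS, Control_EC12 and MS_EC12 its lowest value was in a library with a GC slope above 0.

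**Figure D2:**
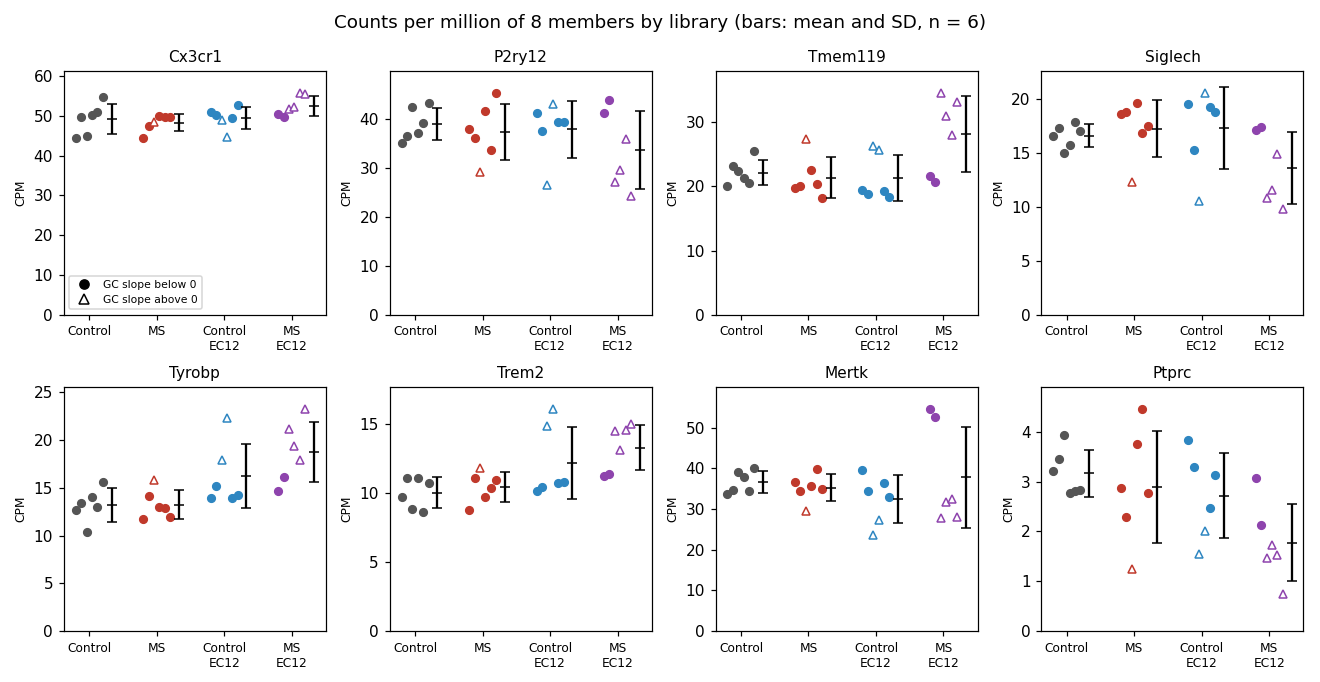
CPM of 8 members by group (linear axes from 0), 1 symbol per library, filled circles for GC slopes below 0 and open triangles for slopes above 0, with the mean and SD of 6 libraries beside them. Within MS_EC12 the open triangles lie above the circles for Tmem119, Tyrobp and Trem2 and below them for P2ry12, Siglech, Mertk and Ptprc, where Mertk has 2 libraries at 54.5 and 52.7 CPM.

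**Figure D3:**
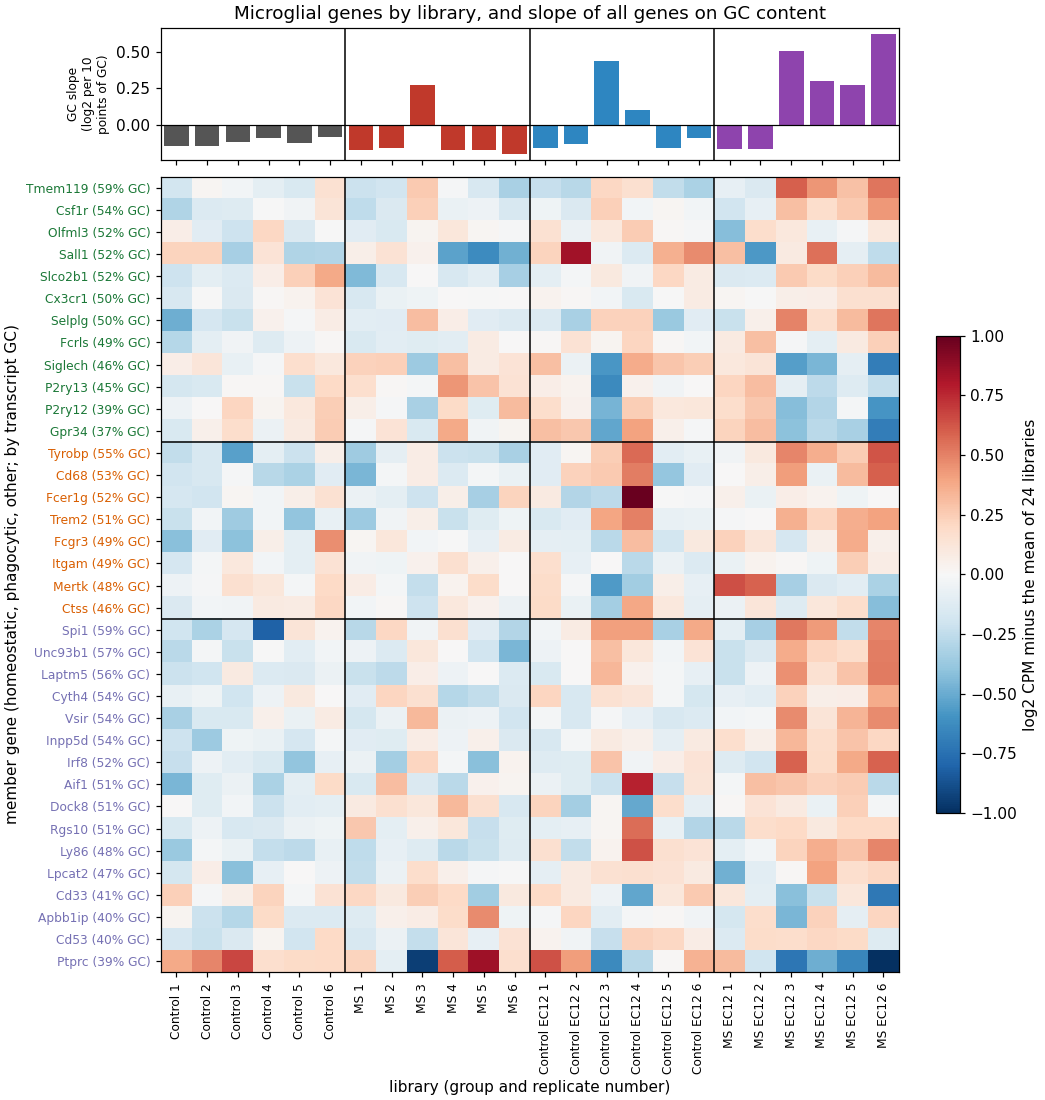
Upper panel: GC slope of each library over all genes. Lower panel: log2 CPM of each member minus its mean over 24 libraries (colour scale from −1 to 1), with rows grouped by role and ordered by the GC content of the transcript, and columns grouped by treatment. In MS_EC12 replicates 3 and 6, which have the highest slopes, most rows at the GC-rich end are high and most at the GC-poor end are low, while in Control_EC12 replicate 4, with a small slope above 0, GC-poor rows such as Gpr34 are high as well.

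The effect of maternal separation without the supplement was asked first (MS vs Control). No member was called higher or lower at an adjusted p under 0.05 (edgeR's quasi-likelihood test, Benjamini-Hochberg over all genes tested), where 0.0326% of all tested genes were called in either direction. At an unadjusted p under 0.05 there was 1 member (2.78%), against 3.6% of all genes, and DESeq2 called 0. The member was Slco2b1, which stood at −0.25 ± 0.11 on the log2 scale (difference and SE; adjusted p = 1.0), lower than the Control median in 5 of 6 libraries. On the higher side the smallest p-values belonged to Dock8 (0.22 ± 0.11) and P2ry13 (0.23 ± 0.12), and Sall1 came second on the lower side at −0.16 ± 0.19, all with an adjusted p of 1.0 in edgeR's test. The 14 members whose group values were not listed ran from −0.01 for Cyth4 to 0.20 for Apbb1ip. Log2 fold changes of the 36 ran from −0.25 to 0.23 with a median of 0.02, against −0.01 over all genes, and 23 were above 0 (63.9%, against 48% of all genes). Of the 36 intervals at the 95% level, 33 lay within 0.5 log2 units of 0 and all 36 within 1 unit. In the 17 libraries with a GC slope below 0 the median was also 0.02, with 0 members called and 3 under an unadjusted 0.05 (8.33%, against 11% of all genes).

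For the supplement after normal rearing (Control_EC12 vs Control) no member was called in edgeR's test either, with 0.0218% of all genes called. An unadjusted p under 0.05 was reached by 5 members (13.9%), against 8.93% of all genes, and DESeq2 called 0. All 5 stood higher in Control_EC12. Ly86 came first at 0.34 ± 0.12 (adjusted p = 0.366), followed by Tyrobp at 0.30 ± 0.13 (adjusted p = 0.481) and Trem2 at 0.28 ± 0.12 (adjusted p = 0.483). The others were Fcrls, an Fc receptor-like protein (0.16 ± 0.07), and Spi1 (0.39 ± 0.18). Cd68 stood at 0.27 ± 0.13 (adjusted p = 0.56). On the lower side the smallest p-values belonged to Mertk at −0.18 ± 0.15 and Ptprc at −0.22 ± 0.27, with adjusted p-values of 0.716 and 0.801. Of the 14 members without listed group values, Aif1, a calcium-binding protein of activated microglia, stood highest at 0.23 and Cd33 lowest at −0.08. The median over the members was 0.09, against 0.01 over all genes, and 27 of 36 were above 0 (75%, against 52.1% of all genes). Without Control_EC12 replicate 4, in which Ly86, Fcer1g, Aif1 and Rgs10 were the highest of their group, Ly86 stood at 0.22, Cd68 at 0.17, and 2 members were under an unadjusted 0.05 (5.56%, against 7.08% of all genes). The count fell to 3 (8.33%) without Control replicate 1, 3 or 4 or Control_EC12 replicate 3. Of all genes, 8.57%, 6.91%, 8.04% and 8% were under an unadjusted 0.05 in these fits. In the 17 libraries the median was 0.06, with 3 members under an unadjusted 0.05 (8.33%, against 14.2% of all genes). The smallest p-value there was that of Tmem119 (adjusted p = 0.155, edgeR), at 18.3 to 19.45 CPM in Control_EC12 against 20.1 to 25.4 in Control. In Control_EC12 these libraries held 10.2 to 10.8 CPM of Trem2, 13.9 to 15.2 of Tyrobp and 24.7 to 27.85 of Fcrls. Replicates 3 and 4, with slopes above 0, held 14.9 to 16.1, 17.9 to 22.3 and 25.7 to 29.25. Control held 8.61 to 11.1, 10.3 to 15.6 and 20.7 to 25.4.

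For the supplement after maternal separation (MS_EC12 vs MS), more members came near the threshold than in the other comparisons, and none passed it in edgeR's test, where 0.163% of all genes were called. At an unadjusted p under 0.05 there were 13 members higher (36.1%, against 15.5% of all genes) and 2 lower (5.56%, against 16.3%), together 41.7% against 31.8%. With the GC slope as a covariate the count was 5 (13.9%, against 7.47%), and in the 17 libraries 3 (8.33%, against 9.44%), no longer above the share of all genes. Tyrobp had the smallest p-value, at 0.50 ± 0.13 (adjusted p = 0.0754), with 6 of 6 libraries above the MS median. Inpp5d stood at 0.25 ± 0.07 (adjusted p = 0.0789) and Ly86 at 0.40 ± 0.12 (adjusted p = 0.0798). The homeostatic genes Tmem119 (0.40 ± 0.13) and Slco2b1 (0.33 ± 0.11) both had an adjusted p of 0.0843, and the phagocytic gene Trem2 (0.35 ± 0.12) one of 0.087. Laptm5, a lysosomal membrane protein (0.31 ± 0.11), Vsir (0.27 ± 0.10), Irf8 (0.36 ± 0.13), Cd68 (0.34 ± 0.13), Csf1r (0.23 ± 0.10), Unc93b1, which carries Toll-like receptors to endosomes (0.29 ± 0.11), and Fcrls (0.17 ± 0.07) made up the rest, with adjusted p-values from 0.0873 to 0.123.

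The 2 members on the lower side were Ptprc at −0.71 ± 0.28 (adjusted p = 0.106) and Siglech at −0.34 ± 0.15 (adjusted p = 0.13). Cd33, another sialic acid receptor, followed at −0.28 ± 0.14 (adjusted p = 0.17), and P2ry12 stood at −0.15 ± 0.13. Over the 36 members the median was 0.14, against 0.02 over all genes, and 27 were above 0 (75%, against 51.9% of all genes). Intervals lay within 0.5 log2 units of 0 for 20 members and within 1 unit for 35, Ptprc being the exception. Calls turned on the libraries and the tool, for all genes as well as for the members. DESeq2 called 6 members higher (16.7%), namely Tmem119, Slco2b1, Trem2, Tyrobp, Ly86 and Inpp5d. It called 11.8% of the 14813 genes to which it gave an adjusted p. Without MS_EC12 replicate 1 edgeR called 14 members (38.9%, against 27.6% of all genes), without MS replicate 3 it called 13 (36.1%, against 21.6%) and without MS_EC12 replicate 2 it called 12 (33.3%, against 25%). Leaving out any of the other 9 libraries gave 0 members, with 0 to 39 genes called in all. The 17 libraries gave 1 member (2.78%, against 0.0762%). In those 17 libraries, which hold 2 of MS_EC12 and 5 of MS, Tyrobp stood at 0.27 (adjusted p = 0.449), Trem2 at 0.15, Inpp5d at 0.19, Ly86 at 0.12, Slco2b1 at 0.10, Tmem119 at 0.06, Csf1r at −0.0015, Siglech at −0.08 and Ptprc at −0.31.

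**Figure D4:**
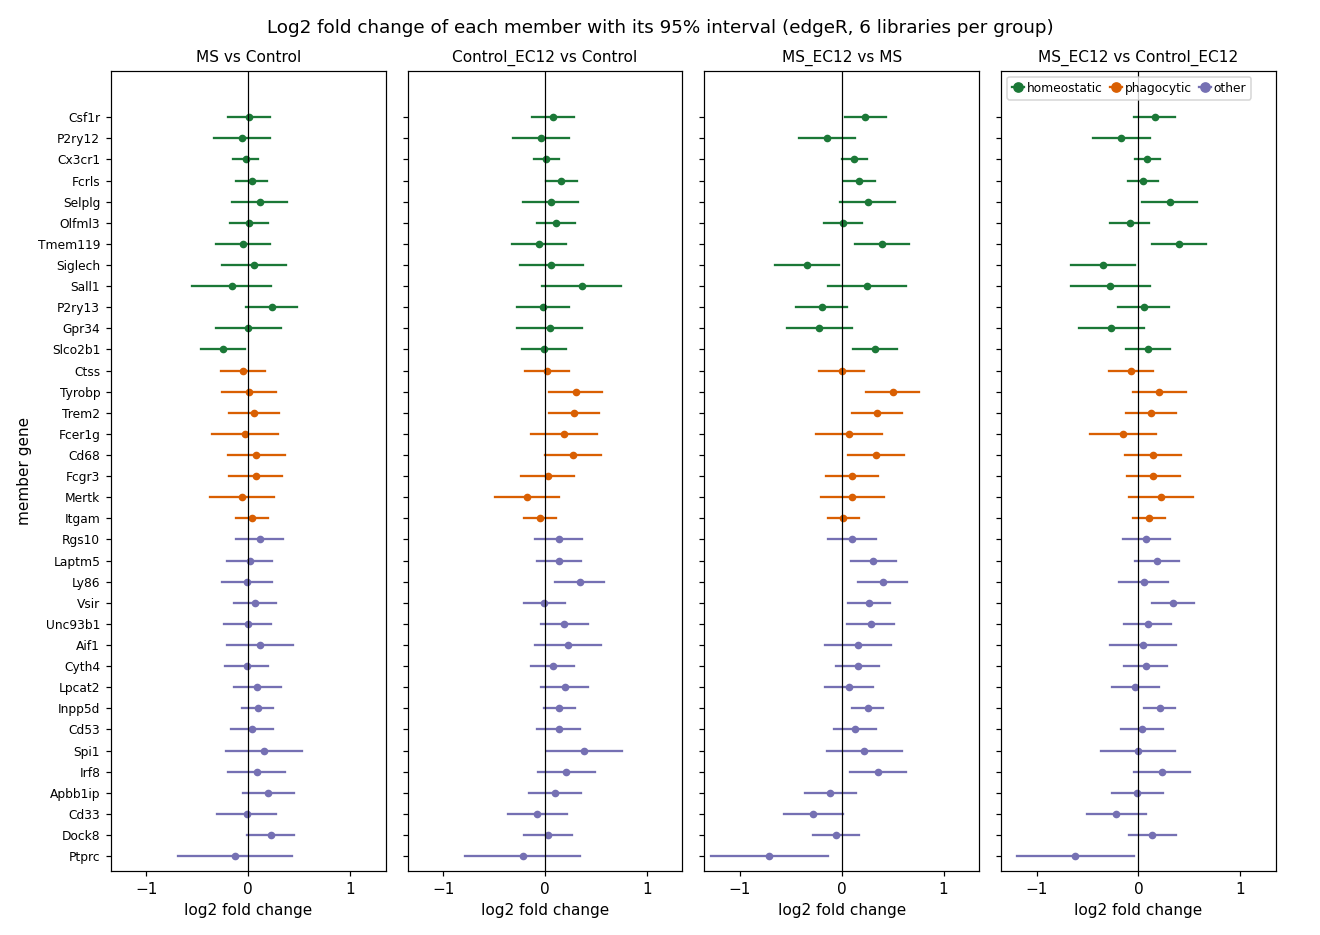
Log2 fold change of each member (points) with its 95% interval (lines) in the 4 pairwise comparisons, ordered by role and then by mean TPM. Most points of MS vs Control lie close to 0, and in MS_EC12 vs MS the points spread from −0.71 for Ptprc to 0.50 for Tyrobp.

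Between the rearings under the supplement (MS_EC12 vs Control_EC12), 0 of 36 members were called in edgeR's test and in DESeq2, with 0.261% of all genes called by edgeR. Unadjusted, 6 members (16.7%) were under 0.05, against 15.9% of all genes. The smallest p-values on the higher side were those of Vsir (0.34 ± 0.10, adjusted p = 0.167) and Tmem119 (0.40 ± 0.13, adjusted p = 0.211), with 6 of 6 libraries above the Control_EC12 median for each. Selplg, the ligand of selectins, stood at 0.31 ± 0.13. On the lower side they were those of Siglech (−0.35 ± 0.15, adjusted p = 0.295) and Ptprc (−0.62 ± 0.28, adjusted p = 0.301). The median was 0.07, against −0.02 over all genes, with 24 members above 0 (66.7%, against 46.5% of all genes), and in the 17 libraries it was 0.000138, with 3 members under an unadjusted 0.05 (8.33%, against 11.4% of all genes). Leaving out 1 library gave 3 to 11 such members. The most came without MS_EC12 replicate 1 (30.6%, against 32.4% of all genes). The fewest came without MS_EC12 replicate 3 or 6 (8.33%, against 8.79% and 7.85% of all genes). MS_EC12 is shared with the comparison against MS, so the values for Tmem119, Siglech and Ptprc in both rest in part on the same 6 libraries.

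Whether the difference with the supplement varied with rearing was tested as an interaction, the MS_EC12 minus MS difference less the Control_EC12 minus Control difference. No member was called by edgeR, against 0.0109% of all genes, and DESeq2 called 0. Unadjusted, 2 members (5.56%, against 4.8% of all genes) were under 0.05, Tmem119 at 0.45 ± 0.18 and Slco2b1 at 0.34 ± 0.15, both with an adjusted p of 0.83. Siglech stood at −0.41 ± 0.22 and Ptprc at −0.49 ± 0.39, and 19 of 36 members were above 0 (52.8%, against 46.8% of all genes). The 95% intervals of the interaction reached beyond 0.5 log2 units for 17 members, so differences of that size between the rearings lie within their intervals. In the 17 libraries the median over the members was −0.00403, 3 members were under an unadjusted 0.05 (8.33%, against 6.71% of all genes) and the lowest adjusted p was 0.076, that of Mertk. With all 24 libraries, no member had groups without overlap in any of the 4 pairwise comparisons. Of all genes, 0.718% had in MS vs Control, 1.33% in Control_EC12 vs Control, 0.854% in MS_EC12 vs MS and 0.468% in MS_EC12 vs Control_EC12.

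Homeostatic and phagocytic members were then set side by side. The median log2 fold changes of the 12 and the 8 genes were 0.00 and 0.02 in MS vs Control, 0.05 and 0.11 in Control_EC12 vs Control, 0.15 and 0.10 in MS_EC12 vs MS and 0.05 and 0.13 in MS_EC12 vs Control_EC12. Homeostatic minus phagocytic, the differences were −0.02, −0.05, 0.04 and −0.09, and they carry no p because the genes of a list are not replicates. The 0.04 of MS_EC12 vs MS turned below 0 on leaving out MS_EC12 replicate 3, 4 or 6 (−0.0209 at the lowest), and in the 17 libraries it was −0.0926. Within each role the members diverged by more than the roles did. In MS_EC12 vs MS the homeostatic genes ran from −0.34 for Siglech to 0.40 for Tmem119, and the phagocytic genes from −0.0019 for Ctss to 0.50 for Tyrobp.

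Per library, the mean deviation of the 8 phagocytic genes from their 24-library means was −0.20 to 0.13 log2 CPM in Control, −0.15 to −0.02 in MS, −0.08 to 0.33 in Control_EC12 and 0.07 to 0.20 in MS_EC12. Every MS_EC12 library thus lay above every MS library, while the range of Control reached into both. The 2 MS_EC12 libraries with a GC slope below 0 stood at 0.09 and 0.12, inside the range of the 4 others, and these are the libraries with the highest Mertk values. Without Mertk, a choice made after its values were seen, they stood at 0.02 and 0.05, below the 4 others at 0.10 to 0.24 and above the MS range of −0.18 to −0.02. The 12 homeostatic genes showed no such order, with −0.01 to 0.06 in MS_EC12 and −0.08 to 0.05 in MS. Nor did the 16 other members, with −0.08 to 0.15 in MS_EC12 and −0.08 to 0.05 in MS. How many other sets of genes show such an order was not computed. Homeostatic minus phagocytic, all 6 MS_EC12 libraries lay below 0, from −0.14 to −0.05, as did 2 of 6 in Control_EC12, 2 in MS and 1 in Control. The lowest value of all libraries, −0.20, was that of Control_EC12 replicate 4. Averaged over the 6 libraries the value was −0.09 in MS_EC12 and 0.02 in MS. By means over the genes MS_EC12 thus lay below MS, whereas the medians of the log2 fold changes gave 0.04 in MS_EC12 vs MS. The sign of this contrast therefore depended on whether the genes were summarised by mean or by median. These per-library means are a description of the chosen genes and were not tested.

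The fold changes of the members followed base composition where the GC slopes of the groups differed. The GC content of the longest transcript ran from 37.1% for Gpr34 to 59.1% for Tmem119, with a median of 50.1% in both the homeostatic and the phagocytic members. In MS_EC12 vs MS the correlation of log2 fold change with GC over the 36 members was r = 0.73 (Spearman's rho 0.69), against 0.63 over the 15144 tested genes with a GC value. Across genes this is a description with no p, since genes share the same libraries. Of the 20 members above 49.9% GC, the median of all genes, 19 had a log2 fold change above 0, and of the 16 at or below it 8 had. P2ry12 (38.6%), Gpr34 (37.1%) and Ptprc (39.4%) lay at the GC-poor end with negative values, and Tmem119 and Spi1 (58.9%) at the GC-rich end with positive ones. For the other comparisons r was 0.04 in MS vs Control, 0.41 in Control_EC12 vs Control and 0.61 in both MS_EC12 vs Control_EC12 and the interaction.

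In the 17 libraries with a slope below 0, r in MS_EC12 vs MS was 0.11. With the GC slope as a covariate it was 0.08, and with the GC trend removed from each library, an alternative added after seeing the data, −0.14. Under the removed trend 0 members were called and 29 of 36 were above 0, with a median of 0.127 over the members against 0.00162 over all genes. Ly86 stood at 0.50 (adjusted p = 0.0801, edgeR), Tyrobp at 0.33 (0.0838), Trem2 at 0.30, Tmem119 at 0.17, Siglech at −0.17 and P2ry12 at 0.29. Tmem119 and Siglech thus lay closer to 0 than before the trend was removed, P2ry12 had the opposite sign and Ly86 lay farther from 0.

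**Figure D5:**
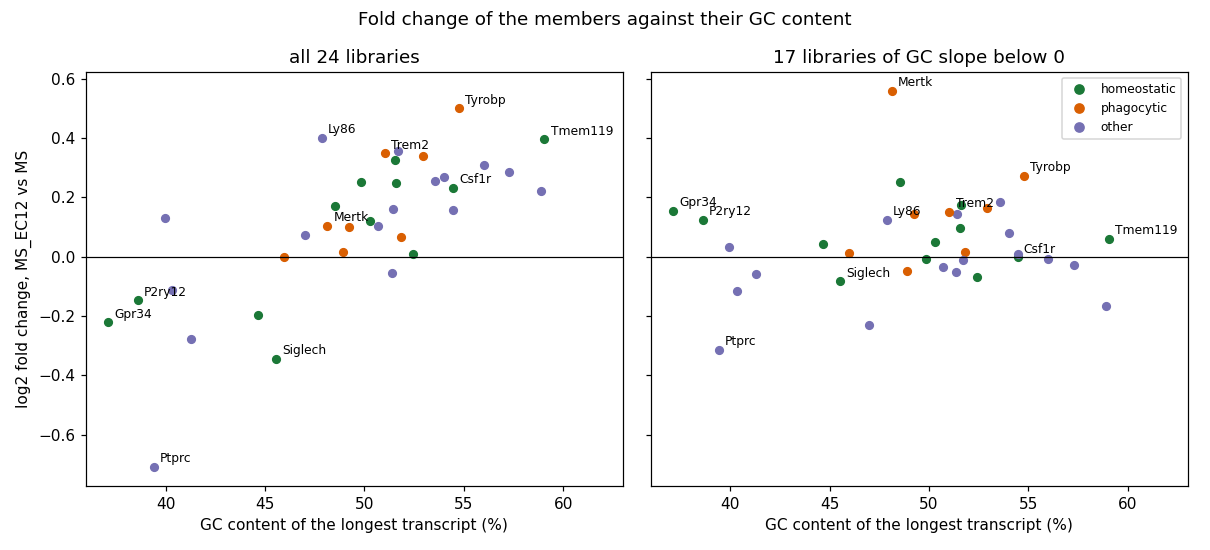
Log2 fold change of MS_EC12 vs MS for each member against the GC content of its longest transcript, in all 24 libraries (left) and in the 17 libraries with a GC slope below 0 (right), coloured by role. The upward trend of the left panel (r = 0.73) is weak in the right panel (r = 0.11), where Mertk stands apart at 0.56.

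Mertk (chr2:128698915-128803162, GRCm38) was the single member called in the 17 libraries. MS_EC12 replicates 1 and 2 held 54.5 and 52.7 CPM, against 23.6 to 40.2 in the other 22 libraries. There the log2 fold change was 0.56 against MS (adjusted p = 0.0151) and 0.58 against Control_EC12 (adjusted p = 0.00406) in edgeR's test, with 2 libraries of MS_EC12. With the GC slope as a covariate and all libraries it was 0.43 (adjusted p = 0.0337) and 0.45 (adjusted p = 0.00196). In all libraries without that covariate it was 0.10 ± 0.15 and 0.22 ± 0.15, since the other 4 MS_EC12 libraries held 27.7 to 32.5 CPM. With the GC trend removed per library the value against MS was 0.17 (adjusted p = 0.449). Mertk was the 1 of 36 members higher in both libraries than in every other library, as were 0.626% of the genes tested, and no member was lower in both, as were 0.484%. The call therefore rests on those 2 libraries.

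Beyond the members, 27 genes of ligands, partner receptors and effectors were measured, and all 27 were tested. In MS_EC12 vs Control_EC12, 1 of the 27 was called higher (against 0.201% of all genes) and 0 lower (against 0.0598%). In the other 4 tests of edgeR with all libraries 0 were called. That gene was Smad3, which carries TGF-beta signals in many brain cells. It ranged from 51.4 to 70.0 CPM in Control_EC12 (median 60.5) and from 70.0 to 99.7 in MS_EC12 (median 85.7), with 71.6 to 91.5 in Control (median 82.2) and 69.2 to 88.0 in MS (median 78.4). The log2 fold change was 0.51 ± 0.09 (adjusted p = 0.0107, edgeR) in MS_EC12 vs Control_EC12 and −0.46 ± 0.09 (adjusted p = 0.0669) in Control_EC12 vs Control, so that Control_EC12 was the group that stood low. The 17 libraries gave 0.28 (adjusted p = 0.211) and −0.47 (adjusted p = 0.00412) in edgeR's test. The call between the rearings was also lost on log2(TPM + 1) and when only the 2 groups were fitted (adjusted p = 0.0789 and 0.286), and leaving out 1 library gave adjusted p-values of 0.00327 to 0.0445. Both comparisons passed with DESeq2 (adjusted p = 0.000114 and 0.0038) and in edgeR with the GC slope as a covariate (0.00704 and 0.000174). They also did in edgeR with a block for replicate number (0.000111 and 0.00118) and with the GC trend removed (0.00256 and 0.000939). The interaction passed with DESeq2 (adjusted p = 0.0251) and in edgeR with the block (0.0045) and with block and GC slope together (0.003). It did not in edgeR with the GC slope alone (0.0594), with the trend removed (0.0772) or in the 17 libraries (0.473). The complement genes C1qa (0.43 ± 0.12), C1qb (0.39 ± 0.11) and C1qc (0.40 ± 0.12) and the lipid carrier Apoe (0.38 ± 0.11) had adjusted p-values of 0.0789 to 0.0798 in MS_EC12 vs MS. They stood at 0.11, 0.11, 0.03 and 0.02 in the 17 libraries. The ligand genes Csf1 and Cx3cl1 were not called in any comparison.

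Of 24 genes known from activated or disease-associated microglia, 19 were tested and none was called in the 5 tests. At an unadjusted p under 0.05 there were 0 in MS vs Control, 6 in Control_EC12 vs Control (31.6%, against 8.93% of all genes), 7 in MS_EC12 vs MS (36.8%, against 31.8%), 5 in MS_EC12 vs Control_EC12 (26.3%, against 15.9%) and 1 in the interaction (5.26%, against 4.8%). In the same order 13, 15, 11, 9 and 6 of the 19 were above 0, against 48%, 52.1%, 51.9%, 46.5% and 46.8% of all genes. The 17 libraries gave 8 of 19 under an unadjusted 0.05 in Control_EC12 vs Control (against 14.2% of all genes). They gave 2 in MS_EC12 vs MS (against 9.44%) and 5 in MS_EC12 vs Control_EC12 (against 11.4%). Above 0 there were 15, 10 and 4 of the 19. In Control_EC12 vs Control, Lgals3, the lectin galectin-3, stood at 1.29 ± 0.35 (adjusted p = 0.193) and the lysozyme gene Lyz2 at 0.36 ± 0.10 (adjusted p = 0.244), and in the 17 libraries they stood at 1.51 and 0.39 (adjusted p = 0.0689 and 0.0964). In MS_EC12 vs MS the lysosomal protease gene Ctsd stood at 0.40 ± 0.10 (adjusted p = 0.0754), the lipase gene Lpl at −0.55 ± 0.16 (adjusted p = 0.0799) and Cd52 at 0.71 ± 0.22 (adjusted p = 0.0833). The 17 libraries gave 0.18, −0.25 and 0.22. Cst7, Itgax, Ccl3, Ccl4 and Tnf were below the filter on low counts.

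Genes of other cell types had no called member in any comparison when all libraries were fitted. In the 17 libraries the astrocyte gene Aqp4, a water channel, was called lower in MS_EC12 vs Control_EC12 (−0.47, adjusted p = 0.00671). It was 1 of 8 astrocyte genes, where 0.18% of all genes were called in either direction. In MS_EC12 vs MS the median was 0.26 for the border-associated macrophage genes (10 of 10 tested), with Cbr2 at 0.84 ± 0.25 (adjusted p = 0.0798) and Mrc1 at −0.49 ± 0.19 (adjusted p = 0.103). It was 0.61 for the 6 blood myeloid genes tested and 0.12 for the 2 lymphocyte genes tested. In MS vs Control the medians of these lists were −0.23, −0.64 and 0.12, so that for the border-associated and blood myeloid genes MS was the low group, and MS_EC12 vs Control_EC12 gave 0.0038, −0.05 and 0.12. Over the neuronal, astrocyte, oligodendrocyte, endothelial, meningeal fibroblast and olfactory bulb genes the medians in MS_EC12 vs MS were −0.11, −0.05, 0.15, 0.15, 0.15 and 0.74, and in MS vs Control −0.02, −0.04, −0.01, −0.18, −0.20 and −0.13. In Control_EC12 vs Control the medians were 0.13, 0.04 and 0.12 for the first 3 lists and −0.11, 0.03, 0.06, −0.0026, 0.25 and 0.90 for the others. The MS_EC12 vs MS medians in the 17 libraries were 0.24, 0.72 and 0.13 for the first 3 lists and −0.0975, 0.0997, −0.12, −0.0716, 0.0894 and 0.69 for the others. Their part in the values of the microglial genes was not tested.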

How the data were processed

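RNA of whole prefrontal cortex was sequenced in 24 libraries made with a stranded mRNA kit, per the labels' protocols. Per the submitters' processing notes, the build was mm10 and the tools included HISAT2 2.1.0 and StringTie 2.1.3b, next to Trimmomatic 0.38, FastQC 0.11.7 and DESeq2. What each did, and whether counting used strand, is not given in the sources used here, which bears on members that overlap other genes. The authors deposited read counts per gene, not normalized, and TPM values, which correct for length.

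The counts were fitted in edgeR 4.0.16 (R 4.3.3) with TMM scaling, the filter filterByExpr (minimum count 10, minimum total 15) and the quasi-likelihood F test with the 24 libraries in 1 fit. P-values were adjusted over all 18380 genes by Benjamini-Hochberg, with 0.05 as the threshold. Standard errors and 95% intervals came from the same fit. The TPM values were used for levels and, on the scale log2(TPM + 1) or log2(TPM + 0.1) with limma 3.58.1, as an alternative. Other alternatives were DESeq2 1.42.0, other scaling, no filter, a replicate block, the GC slope as a covariate, the 17 libraries with a slope below 0, only the groups compared and each library left out. The GC content came from the longest GENCODE transcript of each gene. The scripts were tested on simulated counts.

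Groups and replicate numbers came from the labels. Members and lists were chosen with earlier results of these data known. Members given with the values of each group were a preset list of 14 and those with the 2 smallest p-values in each direction of a comparison. Counting error alone limits the lowest members, with 29 counts at the least.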

Additional observations from a re-analysis of the deposited data

Results flagged for a closer look

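A library stood apart from the other 5 of its group, by Dixon's test on log2 CPM, in 10 of 144 checks (36 members in 4 groups). Chance gives about 5% of such checks. Control_EC12 replicate 3 was lowest in its group for P2ry12 (26.5 CPM, next 37.7) and for its chromosomal neighbour P2ry13 (6.65, next 10.2). Control_EC12 replicate 4 was highest for Fcer1g (12.9 CPM, next 6.89), Aif1 (8.34, next 5.31) and Rgs10 (32.7, next 22.5). MS replicate 3 was lowest for Siglech (12.3 CPM, next 16.8) and highest for Vsir (39 CPM, next 30.1), and it is the MS library with a GC slope above 0. Cd33 was lowest in MS replicate 5 (3.83 CPM, next 5.22), Lpcat2 in Control_EC12 replicate 1 (8.19, next 9.25) and Rgs10 in MS_EC12 replicate 1 (18.4, next 23.8). What sets these libraries apart was not tested.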

How the results depend on the processing

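Members called in MS vs Control and Control_EC12 vs Control stayed at 0 under all 23 alternatives run. In MS_EC12 vs MS the count was 6 with DESeq2 (16.7%, against 11.8% of the 14813 genes with an adjusted p there). It was 11 with the replicate block (30.6%, against 20.7% of all genes). With the GC slope as a covariate and in the 17 libraries it was 1 (2.78%, against 0.0163% and 0.0762%). Leaving out 1 library gave 0 to 14, where 0 to 5064 of all genes were called. In MS_EC12 vs Control_EC12 the count was 1 (2.78%) with the GC slope as a covariate, with the block and covariate together, and in the 17 libraries. Of all genes, 0.223%, 0.441% and 0.18% were called there. In the interaction it was 1 with the block and covariate together (2.78%, against 0.169% of all genes). The member was Mertk each time. The labels do not say whether the replicate numbers pair the libraries. Correlations of same-numbered libraries ran from −0.30 to 0.46 over the comparisons, and at most 2 of 6 libraries correlated best with their own number. The mean correlation was higher for same than for other numbers in each pairwise comparison, as in MS_EC12 vs Control_EC12 (0.13 against −0.03). Whether libraries of the same number share a batch or litter was not tested. Under the block Tmem119, Csf1r, Slco2b1, Trem2, Tyrobp, Laptm5, Ly86, Irf8, Inpp5d and Vsir were called higher and Siglech lower.

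The homeostatic minus phagocytic median in MS_EC12 vs MS, 0.0447 in all libraries, was −0.0592 with the GC covariate, −0.0273 with block and covariate, −0.0926 in the 17 libraries and −0.0209 to 0.0863 when leaving out 1 library, the lowest without MS_EC12 replicate 6. In MS_EC12 vs Control_EC12 it was −0.0128 with the covariate, 0.024 with block and covariate and −0.0137 with the GC trend removed. In Control_EC12 vs Control it was 0.0531 in the 17 libraries and −0.111 to 0.0353 when leaving out 1 library, the highest without Control_EC12 replicate 4.

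Single members changed sign in MS_EC12 vs MS: P2ry12 to 0.14 with the covariate, 0.227 with block and covariate, 0.125 in the 17 libraries and 0.288 with the GC trend removed, Ptprc to 0.00745 with block and covariate, and Csf1r (−0.0015), Irf8 (−0.0115) and Laptm5 (−0.00651) in the 17 libraries. Mertk was −0.043 with log2(TPM + 1), −0.0482 with log2(TPM + 0.1) and −0.0288 to 0.181 when leaving out 1 library, below 0 without MS_EC12 replicate 1 or 2. In Control_EC12 vs Control, Ptprc turned to 0.00997 with block and covariate and 0.0115 in the 17 libraries. The cause was not tested. Depth limits Ptprc most, with as few as 29 counts in a library.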
